A study of Mus musculus with 6 samples.

Results

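The genes described here act on vessel tone and are 10 of the 27998 genes in the count matrices: Nos3, Edn1, Ece1, Ednra, Ednrb, Gucy1a3, Gucy1b3, Prkg1, Ace and Agtr1a. They were taken by name as a list of nitric oxide, endothelin and angiotensin genes. No threshold on a measured value was used, but earlier results of these data were known. Cells were dissociated from mouse aorta and profiled by droplet-based single-cell RNA sequencing, in which each captured transcript is counted once through its unique molecular identifier (UMI). The high-fat diet group held 3 samples and the control group, which the series describes as fed a normal diet, held 3 samples. Mice of both groups were of strain C57B/6J and 18 weeks old. The composition and length of the diet, and whether a sample was 1 aorta or several, are not given in the sources used here, so p-values measure the spread between these samples, which may be technical.

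Nitric oxide synthase 3, the product of Nos3, makes nitric oxide in endothelial cells, the inner lining of vessels. Nitric oxide crosses into the smooth muscle cells and pericytes around the lining and binds soluble guanylate cyclase, a dimer whose subunits are encoded by Gucy1a3 and Gucy1b3, and the cyclic GMP it makes activates the kinase encoded by Prkg1, which relaxes the cell. Edn1 encodes the precursor of endothelin 1, Ece1 encodes the protease that releases the mature peptide, and the peptide acts through a contractile receptor on mural cells (Ednra) and another receptor (Ednrb) that on endothelium clears the peptide and raises nitric oxide. Ace encodes the enzyme that makes angiotensin II, and Agtr1a encodes its main constrictor receptor in mice.

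The genes lie on 8 mouse chromosomes (build mm10, GENCODE annotation). Nos3 is at chr5:24364810-24384474 on the plus strand, Edn1 at chr13:42301476-42307990 on the plus strand, and Agtr1a on the same chromosome at chr13:30336441-30382867 on the plus strand. Ece1 is at chr4:137862237-137965229 and Ace at chr11:105967945-105989964, both on the plus strand. Ednra is at chr8:77663031-77724464, Ednrb at chr14:103814625-103844402 and Prkg1 at chr19:30564489-31765033, all on the minus strand. Gucy1a3 (chr3:82092427-82145789, minus strand, named Gucy1a1 in the annotation) and Gucy1b3 (chr3:82032006-82074689, minus strand, named Gucy1b1) are neighbours, 17737 bases apart with 0 annotated genes between them.

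The stretches before the transcription start of genes whose levels moved together across cell types are printed here: Edn1 and Ece1, both high in arterial-like endothelium, and then Gucy1b3 and Prkg1, both high in mural cells. Each is the 250 bases before a RefSeq start (GRCm38.p6), written along the gene's own strand. None of the 4 overlaps an annotated GENCODE exon. The coordinates are chr13:42301226-42301475 (plus) for Edn1, chr4:137861987-137862236 (plus) for the first Ece1 start, chr3:82074712-82074961 (minus) for Gucy1b3 and chr19:31765034-31765283 (minus) for the first Prkg1 start. Capitals mark the motif CCAAT, read on either strand, and the motif GATAA.
Edn1: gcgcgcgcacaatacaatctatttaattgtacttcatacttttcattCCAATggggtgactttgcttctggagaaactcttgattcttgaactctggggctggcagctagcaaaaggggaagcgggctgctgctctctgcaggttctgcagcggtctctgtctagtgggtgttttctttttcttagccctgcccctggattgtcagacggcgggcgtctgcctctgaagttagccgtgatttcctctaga
Ece1: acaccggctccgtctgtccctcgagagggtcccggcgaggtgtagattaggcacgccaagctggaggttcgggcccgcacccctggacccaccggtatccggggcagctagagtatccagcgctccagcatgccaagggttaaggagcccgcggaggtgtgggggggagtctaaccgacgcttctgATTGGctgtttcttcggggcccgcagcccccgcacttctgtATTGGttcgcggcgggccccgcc
Gucy1b3: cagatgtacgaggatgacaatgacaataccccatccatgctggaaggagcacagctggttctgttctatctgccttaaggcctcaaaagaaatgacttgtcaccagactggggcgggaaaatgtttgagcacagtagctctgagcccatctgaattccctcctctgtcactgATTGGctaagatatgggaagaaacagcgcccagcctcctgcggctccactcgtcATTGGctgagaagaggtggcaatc
Prkg1: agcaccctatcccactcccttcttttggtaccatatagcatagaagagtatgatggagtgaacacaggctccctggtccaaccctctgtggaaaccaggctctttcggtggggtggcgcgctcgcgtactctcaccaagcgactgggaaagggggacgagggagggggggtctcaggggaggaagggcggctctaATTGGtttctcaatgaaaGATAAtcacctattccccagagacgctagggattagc
CCAAT was found in 33.8% and GATAA in 22.6% of the 32851 stretches of this length in the RefSeq table, so either is a common match. TATAAA, in 12.4% of all stretches, TGACTCA, in 4.46%, and the CArG box, in 1.47%, were searched on both strands too and were in none of the 4 printed. The 2 guanylate cyclase genes did not share a match: Gucy1b3 had 2 matches to ATTGG, at bases 78 to 74 and 24 to 20 before the start, and the stretches before the 2 RefSeq starts of Gucy1a3, not printed, had no match to any of the 5 motifs. Entries were found for 8 of the 10 genes; Nos3 and Agtr1a are named only.

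The deposited matrices held 62838 cells, of which 58019 were used after filtering on genes, mitochondrial share and doublets. Deposited cells per sample were 8268 to 10888 on the high-fat diet and 6623 to 18138 in controls, with median depths of 3856 to 4844.5 UMIs on the high-fat diet and 3960.5 to 5955 UMIs in controls. Cells were clustered with the 10 genes, and the other genes of their pathways, kept out of the clustering, and 23 cell types were named from marker genes, each called "-like". Smooth muscle-like cells (11291) carried the aortic markers Sost and Npnt, but the suspensions also held chondrocyte-like (984), cardiomyocyte-like (206) and skeletal muscle-like (195) cells. Library control 1 stood apart: 62.4% and 30.6% of its smooth muscle-like cells were in clusters that held at most 2.34% of those of any other sample, and 69.3% of its capillary-like cells were in a cluster with at most 0.431% of those of any other. So did 66.0% of its fibroblast-like, 68.5% of its macrophage-like and 83.3% of its lymphatic-like cells, in clusters with at most 1.02% of those of any other. Its arterial-like and pericyte-like cells lay in clusters that other samples filled too. Between samples, 26 to 127 cell barcodes were shared, 0.393% to 1.29% of the smaller library, and of the 917 shared barcodes left after filtering 0 pairs had profiles correlated above 0.95.

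By the cell type with the highest mean, the 10 genes fell into an endothelial group (Nos3, Edn1, Ece1 and Ace), a mural group (Gucy1a3, Gucy1b3, Prkg1, Ednra and Agtr1a), and Ednrb, which was highest in macrophage-like cells. Levels are given as counts per 1000000 UMIs of the summed cells of 1 type in 1 sample (CPM), for the 14 types with at least 20 cells in every sample. Levels between types were compared by their spread over the 6 samples only, without a test, because the types were drawn from the same cells. In a pool of cells, fewer expressing cells and fewer transcripts per cell cannot be told apart.

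Nos3, the endothelial nitric oxide synthase, was highest in arterial-like endothelium, with 188, 132 and 155 CPM on the high-fat diet and 125, 226 and 129 CPM in controls (159 ± 40.4 CPM, SD, n = 6). Lymphatic-like endothelium followed with 63.4, 76.7 and 88.7 CPM on the high-fat diet and 54.4, 63.0 and 80.7 CPM in controls, below arterial-like endothelium in 6 of 6 samples. Capillary-like endothelium, at 52.6 ± 10.2 CPM, overlapped the lymphatic range. Every other of the 14 types averaged at most 2.2 CPM. With each cell thinned to 1000 UMIs, a Nos3 UMI was seen in 11.4% ± 5.21 of arterial-like cells and in 0.109% ± 0.104 of fibroblast-like cells (SD, n = 6), whose median depths were 3892 and 4413 UMIs; the unthinned shares were 41.7% and 0.690%.

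Arterial-like endothelium was not uniform for Nos3. Its main cluster, led by Gkn3, Cytl1 and Vcam1, averaged 198 ± 44.1 CPM, and another led by Sema3g, Alpl and Hey1 averaged 48.8 ± 11.1 CPM over the 3 samples that held 20 cells of both, without overlap. The lymphatic-like cells split in the same manner, with 126 ± 23.8 CPM in the Clca3a1- and Ackr4-led cluster and 28.3 ± 13.9 CPM in the Ccl21a- and Reln-led one, higher in 5 of 5 samples.

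Edn1, the endothelin 1 precursor gene, had 402, 500 and 597 CPM in arterial-like endothelium on the high-fat diet and 1004, 171 and 313 CPM in controls. The control samples spanned the whole range of the high-fat diet samples, and control 1 was the highest of the 6. Capillary-like endothelium had 57.1, 77.4 and 149 CPM on the high-fat diet and 111, 32.1 and 8.46 CPM in controls, below the arterial range throughout. Lymphatic-like endothelium averaged 58.0 ± 30.2 CPM and fibroblast-like cells 25.3 ± 11.5 CPM (SD, n = 6), and neither was separated from its neighbour in the order. After thinning, 29.1% ± 14.6 of arterial-like cells and 0.0803% ± 0.197 of erythroid-like cells (median 4003 UMIs) held an Edn1 UMI, against 53.5% and 1.41% without thinning.

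Within types, Edn1 was carried by part of the clusters. The Clca3a1- and Ackr4-led lymphatic-like cluster averaged 129 ± 52.2 CPM, and the Ccl21a- and Reln-led one averaged 2.72 ± 3.74 CPM (5 samples). The Pi16-led fibroblast-like cluster averaged 45.6 CPM and the Spon2-led one 1.27 CPM over the 4 samples with both. In arterial-like endothelium the 2 clusters did not separate, at 490 ± 101 CPM in the Gkn3-led cluster and 460 ± 213 CPM in the Sema3g-led one.

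Ece1, the endothelin-converting protease gene, had its highest mean in lymphatic-like endothelium, with 609, 508 and 528 CPM on the high-fat diet and 458, 600 and 652 CPM in controls. Arterial-like endothelium overlapped that range at 533 ± 145 CPM (SD, n = 6) and was the higher of the 2 in 4 of 6 samples. Capillary-like endothelium had 175, 178 and 180 CPM on the high-fat diet and 233, 230 and 203 CPM in controls, below both in 6 of 6 samples. Fibroblast-like cells averaged 62.6 ± 4.56 CPM, below the capillary range. Its order between the lymphatic-like clusters was opposite to that of Nos3 and Edn1, with 425 ± 49.6 CPM in the Clca3a1- and Ackr4-led cluster and 712 ± 91.3 CPM in the Ccl21a- and Reln-led one.

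Ace, the angiotensin-converting enzyme gene, had 407, 289 and 417 CPM in arterial-like endothelium on the high-fat diet and 420, 578 and 253 CPM in controls. Fibroblast-like cells came next with 139, 125 and 170 CPM on the high-fat diet and 180, 201 and 182 CPM in controls, with no overlap with arterial-like endothelium above or with smooth muscle-like cells (59.7 ± 25 CPM) below. Capillary-like endothelium averaged 46.4 ± 27.2 CPM, so the arterial mean was 8.5 times the capillary one. The Gkn3-led arterial-like cluster averaged 441 ± 74.2 CPM and the Sema3g-led one 118 ± 49.8 CPM, as for Nos3 without overlap. Among fibroblast-like clusters the Pi16-led one averaged 217 CPM and the Spon2-led one 72.7 CPM over 4 samples.

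**Figure D1:**
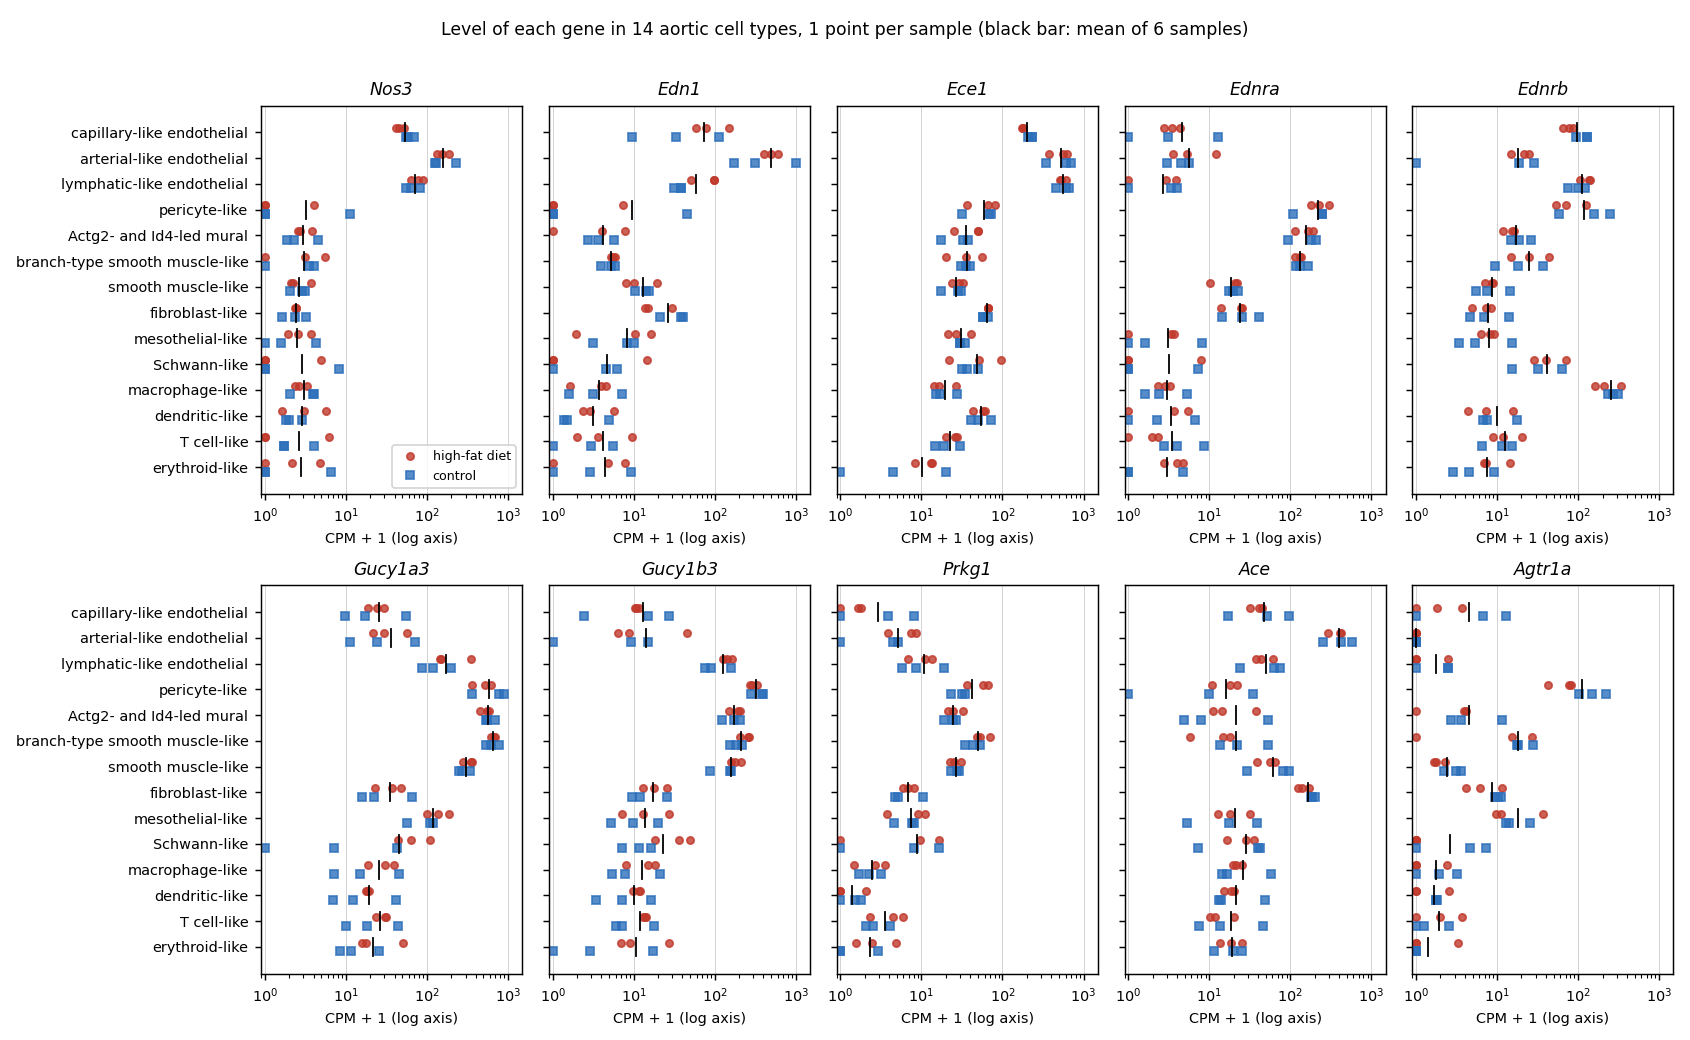
Level of each of the 10 genes (CPM + 1, log axis) in 14 cell types, with 1 point for each of the 3 high-fat diet samples (circles) and 3 control samples (squares) and a black bar at the mean of the 6. Nos3, Edn1, Ece1 and Ace peak in endothelial types, Ednra, Gucy1a3, Gucy1b3, Prkg1 and Agtr1a in mural types, and Ednrb in macrophage-like cells at 159 to 341 CPM.

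Ednra, the constrictor endothelin receptor gene, was highest in pericyte-like cells, with 295, 228 and 181 CPM on the high-fat diet and 246, 107 and 246 CPM in controls. Mural cells led by Actg2 and Id4 averaged 157 ± 45.4 CPM and branch-type smooth muscle-like cells, marked by Sncg and Rgs4, 132 ± 17.5 CPM (SD, n = 6), and these 3 types overlapped. Smooth muscle-like cells of the aortic wall had 19.9, 20.8 and 9.15 CPM on the high-fat diet and 21.3, 16.3 and 18.6 CPM in controls, below the branch-type cells in every sample. Fibroblast-like cells, at 22.9 ± 9.73 CPM, were also separated from the branch-type range. After thinning, 17.6% ± 5.60 of pericyte-like, 1.75% ± 0.408 of smooth muscle-like and 0.138% ± 0.248 of capillary-like cells held an Ednra UMI (47.5%, 10.7% and 1.03% unthinned; median depths 3430, 6747 and 2996 UMIs). Among fibroblast-like clusters the Spon2-led one stood out with 86.3 CPM, against 7.19 CPM in the Pi16-led one over 4 samples.

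Ednrb, the other endothelin receptor gene, was highest in macrophage-like cells, with 206, 159 and 341 CPM on the high-fat diet and 230, 266 and 305 CPM in controls. A UMI was seen in 20.1% ± 4.80 of macrophage-like cells after thinning (43.4% unthinned, median 3342 UMIs) and in 0.816% ± 0.761 of T cell-like cells (3.51% unthinned, median 3386 UMIs). The macrophage-like signal was concentrated in the F13a1- and Cd163-led cluster, at 287 ± 75.8 CPM, and was 51.7 ± 61.4 CPM in the Cx3cr1- and Lyz2-led one, with no overlap in 5 samples. Next in order were pericyte-like cells (118 ± 76.5 CPM), lymphatic-like endothelium (112 ± 24.5 CPM) and capillary-like endothelium (95.2 ± 26.6 CPM), which overlapped each other. Arterial-like endothelium averaged 17.1 CPM, below capillary-like endothelium in 6 of 6 samples, the reverse of the order for Nos3, Edn1, Ece1 and Ace. Its few UMIs were in the Sema3g-led cluster, at 58.8 ± 21.3 CPM, with 2.66 ± 2.32 CPM in the Gkn3-led one over 3 samples.

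Gucy1a3, the alpha subunit gene of soluble guanylate cyclase, had 687, 670 and 623 CPM in branch-type smooth muscle-like cells on the high-fat diet and 783, 621 and 534 CPM in controls. Pericyte-like cells (587 ± 221 CPM) and Actg2- and Id4-led mural cells (560 ± 74.8 CPM) overlapped that range. Smooth muscle-like cells of the aortic wall had 277, 345 and 358 CPM on the high-fat diet and 343, 248 and 267 CPM in controls, below the Actg2- and Id4-led cells with no overlap. Lymphatic-like endothelium was the highest non-mural type at 173 ± 92.1 CPM, and capillary-like endothelium held 24.7 CPM.

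Gucy1b3, the beta subunit gene, was highest in pericyte-like cells, with 285, 275 and 333 CPM on the high-fat diet and 391, 276 and 384 CPM in controls. Branch-type smooth muscle-like cells averaged 212 ± 41.8 CPM, below every pericyte-like sample. Smooth muscle-like cells had 160, 208 and 179 CPM on the high-fat diet and 157, 154 and 85.4 CPM in controls, which overlapped the Actg2- and Id4-led cells (174 ± 32.9 CPM) and lymphatic-like endothelium (125 ± 36.5 CPM). Schwann-like cells came next at 22.1 ± 16 CPM, with a gap between. Both subunits were lower in the Clca3a1- and Ackr4-led than in the Ccl21a- and Reln-led lymphatic-like cluster in 5 of 5 samples, at 107 and 227 CPM for Gucy1a3 and at 55.6 and 178 CPM for Gucy1b3.

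Prkg1, the cyclic GMP-dependent kinase gene, was highest in branch-type smooth muscle-like cells, with 68.7, 48.1 and 51.7 CPM on the high-fat diet and 51.8, 42.0 and 33 CPM in controls. Pericyte-like cells (40.6 ± 16.6 CPM), smooth muscle-like cells (25.4 ± 3.29 CPM) and Actg2- and Id4-led cells (23.7 ± 4.57 CPM) followed, each overlapping its neighbour. Lymphatic-like endothelium, at 9.79 ± 4.95 CPM, was the first type below them without overlap. A Prkg1 UMI was found in 7.31% ± 1.19 of branch-type cells after thinning, and in 0 of 2055 dendritic-like cells, which allows up to 0.187% of cells with a UMI at that depth (95% Wilson interval over pooled cells, counting error only). Without thinning 0.239% of dendritic-like cells held one.

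Agtr1a, the angiotensin II receptor gene, was the most sparsely counted of the 10, with 1378 UMIs in all cells. Pericyte-like cells had 75.4, 41.9 and 80.0 CPM on the high-fat diet and 101, 147 and 220 CPM in controls, above every other of the 14 types without overlap. Mesothelial-like cells (17.3 ± 10.6 CPM), branch-type smooth muscle-like cells (16.9 ± 9.74 CPM) and fibroblast-like cells (7.77 ± 2.92 CPM) followed. Smooth muscle-like cells of the aortic wall held 0.741, 0.684 and 1.29 CPM on the high-fat diet and 2.09, 2.57 and 1.24 CPM in controls. Arterial-like endothelium held 0 UMIs in 557 cells, which allows up to 0.685% of cells with an Agtr1a UMI (95% Wilson interval over pooled cells, counting error only) and sets no limit on cells that express the gene.

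The pericyte-like class itself had 2 clusters that differed for several of the genes. The Kcnj8- and Steap4-led cluster averaged 210 CPM of Agtr1a and the Colec11- and Ccl11-led cluster 27 CPM over the 4 samples with at least 20 cells of both. Ednrb was higher there too, at 354 ± 177 CPM in the Kcnj8- and Steap4-led cluster and 8.61 ± 5.34 CPM in the other. Gucy1b3 was also higher without overlap, at 405 ± 111 and 243 ± 21.2 CPM. Ednra went the other way in 4 of 4 samples, at 163 ± 68.2 and 217 ± 79.4 CPM, with overlapping ranges.

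**Figure D2:**
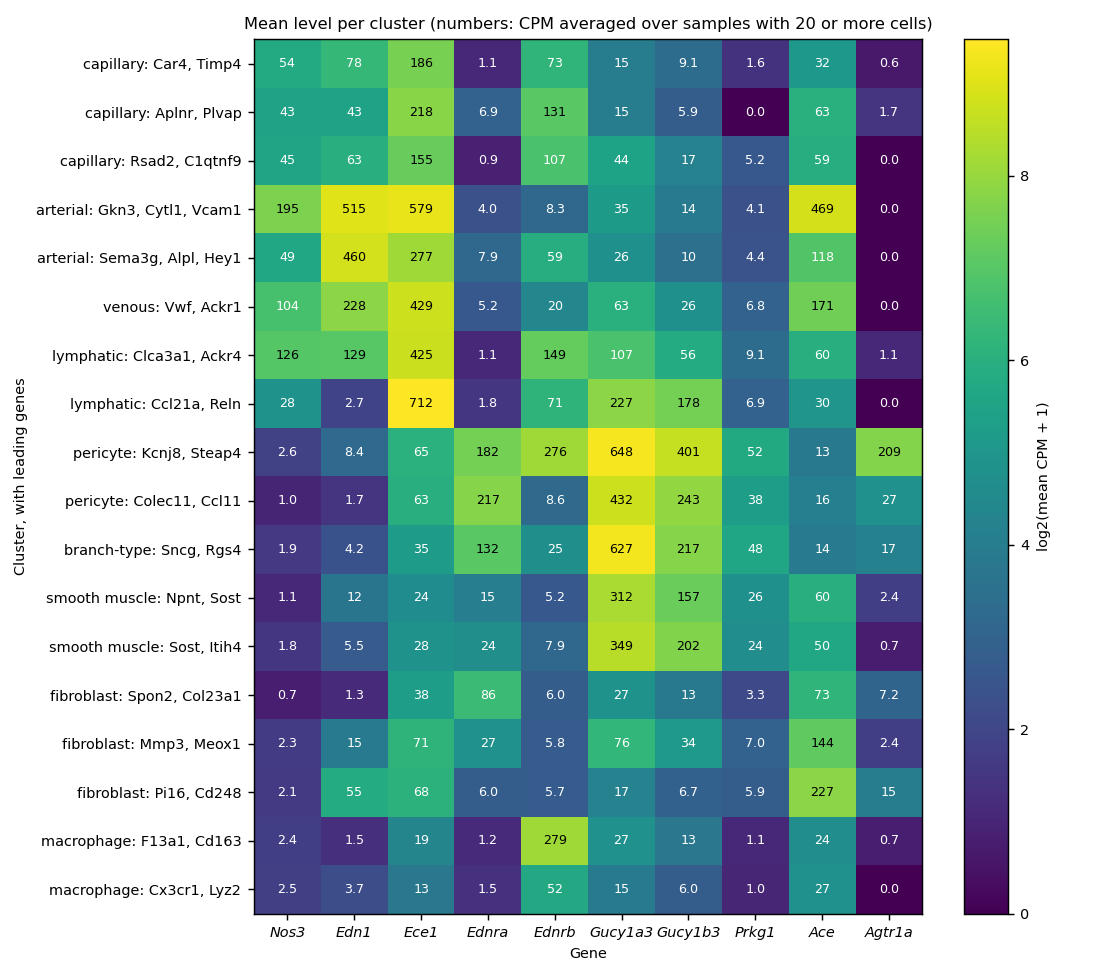
Mean level of the 10 genes (columns; colour is log2(mean CPM + 1), and the printed number is CPM averaged over samples with at least 20 cells of the cluster) in 18 clusters (rows, with their leading genes). Clusters of 1 cell type differ, for example, for Ednrb and Agtr1a in pericyte-like cells, for Edn1 in lymphatic-like and fibroblast-like cells and for Nos3, Ace and Ednrb in arterial-like cells.

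The shared patterns were described by Pearson's r of log2(CPM + 1) over the 14 types, whose points share libraries and depth. Gucy1a3 and Gucy1b3 had r = 0.949, Gucy1a3 and Prkg1 r = 0.953, and Gucy1b3 and Prkg1 r = 0.926. In the endothelial group Nos3 and Ece1 had r = 0.902 and Nos3 and Edn1 r = 0.892. The groups were looser for Ace and Agtr1a. Ace had r = 0.616 with Nos3, 0.640 with Ece1 and 0.847 with Edn1. Agtr1a had r = 0.518 with Gucy1b3, 0.616 with Gucy1a3, 0.631 with Prkg1 and 0.685 with Ednra. Ligand and receptor were apart: Edn1 and Ednra had r = -0.123 and Edn1 and Ednrb r = 0.133. Ednra and Ednrb had r = 0.013. Among all genes reaching 20 CPM in a type, those most like Nos3 were Mall, Wscd1 and Mmrn2 (r = 0.987, 0.985 and 0.983), and those most like Ednra were Rgs6, Kcne4 and Pdgfrb (r = 0.977, 0.974 and 0.966). For Edn1 they were Pecam1, Tek and Plxna2 (0.933, 0.932 and 0.907), for Ednrb Stard8, Smagp and Rell1 (0.942, 0.839 and 0.829), and for Ece1 Dennd3, Bvht and Mall (0.945, 0.930 and 0.918). For Gucy1a3 they were Parm1, Susd2 and Cald1 (0.940, 0.936 and 0.928), for Gucy1b3 Slc6a9, Nexn and Cacna2d1 (0.936, 0.908 and 0.906), and for Prkg1 Cald1, Cacna2d1 and Nkd1 (0.962, 0.956 and 0.947). For Agtr1a they were Nckap5, Pla2r1 and Steap4 (0.901, 0.899 and 0.885), and for Ace Gxylt2, Adh7 and Myrip (0.876, 0.872 and 0.834).

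The genes were more uneven between types than most. By the SD of log2(CPM + 1) over the 14 types, Ednra stood at percentile 99.7 of 9825 genes that reached 20 CPM in a type, Edn1 at 98.8 and Nos3 at 98.7. Ace was the least uneven of the 10, at percentile 79.2. Because the list was chosen with earlier results of these data known, these percentiles are a description only.

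Other genes of the 3 pathways, from lists of 40, 13 and 18 genes that include the 10, filled in the map, with those named here chosen after their levels were seen. Enpep, an aminopeptidase that cleaves angiotensin II, was highest in pericyte-like cells at 122 CPM, as Agtr1a was. Pde5a, the cyclic GMP phosphodiesterase, and Mrvi1, a substrate of the Prkg1 kinase, were highest in branch-type smooth muscle-like cells at 157 and 239 CPM. Nos2, the inducible synthase, held 24.2 CPM in capillary-like endothelium and at most 1.13 CPM in any other of the 14 types. Agt, the angiotensin precursor gene, reached 12.8 CPM in its highest type, and the receptor genes Agtr1b and Agtr2 reached 3.79 and 0.884 CPM.

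A further comparison set the high-fat diet against control within a class, on UMI counts summed over the cells of a class in each sample (edgeR's quasi-likelihood test, Benjamini-Hochberg adjustment over all genes tested, call at an adjusted p under 0.05). None of the 10 genes was called in any of the 6 classes tested, either by edgeR or by DESeq2, which left Agtr1a in pericyte-like cells without an adjusted p. In capillary-like endothelium Nos3, Ednrb and Ece1 were lower in every high-fat diet sample than in every control sample, in pericyte-like cells Agtr1a was lower, and in fibroblast-like cells Ace was lower. In smooth muscle-like cells Gucy1b3 was higher. A p that misses the threshold does not show that levels were alike. The SE gives the uncertainty of each log2 fold change, and a change well beyond its SE can go uncalled after adjustment. Ednrb in capillary-like endothelium, at -0.67 with SE 0.175, was such a case (adjusted p = 0.146, edgeR).

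In capillary-like endothelium (303, 307 and 464 cells on the high-fat diet; 163, 148 and 305 in controls), 0 of the 7 genes that passed the filter on low counts was called, while 0.26% of 8860 genes were. Separated diets were seen for 3 of the 7, all lower on the high-fat diet, and for 19.7% of all genes tested, with 8.68% of all genes lower on the high-fat diet. An unadjusted p under 0.05 was reached by 3 of the 7 and by 13.4% of all genes tested.

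Nos3 in capillary-like endothelium had 40.1, 44.0 and 50.9 CPM on the high-fat diet and 58.3, 68.5 and 53.6 CPM in controls, a log2 fold change of -0.44 with SE 0.196 (adjusted p = 0.350, edgeR). Ednrb had 84.7, 63.5 and 76.6 CPM on the high-fat diet and 128, 91.9 and 126 CPM in controls, a log2 fold change of -0.67 with SE 0.175 (adjusted p = 0.146, edgeR). Ece1, with the values given above, had a log2 fold change of -0.36 with SE 0.136 (adjusted p = 0.293, edgeR). All 3 were lower in 3 of 3 high-fat diet samples than in any control sample, and none passed the correction. Without control 1 the log2 fold changes were -0.49, -0.65 and -0.37, with edgeR adjusted p of 0.217, 0.0545 and 0.151.

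The capillary-like class was made of clusters that samples filled unequally, so the values were also read within the Car4- and Timp4-led cluster, the one that most samples held. There Ednrb had 69.8, 64.4 and 73.8 CPM on the high-fat diet and 87.1 and 71.9 CPM in controls 2 and 3. Nos3 had 29.9, 61.7 and 50.8 CPM on the high-fat diet and 72.6 and 53.9 CPM in controls, and Ece1 160, 239 and 181 CPM on the high-fat diet and 153 and 198 CPM in controls. The diets overlapped for all 3 genes within that cluster. It held 27, 130 and 443 cells on the high-fat diet, and 44 and 20 in controls 2 and 3. Control 1, with 3 cells, was left out. With so few cells in some samples, the overlap does not show that levels were alike. Of 10 marker lists of other cell types, summed in the capillary-like class, none was separated by diet.

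Edn1 in capillary-like endothelium had a log2 fold change of 0.98 with SE 0.966 (adjusted p = 0.739, edgeR), with control 1 between the high-fat diet samples. In arterial-like endothelium its log2 fold change was -0.02 (SE 0.640, edgeR adjusted p = 1.00). Of the 5 genes tested there, 0 was called by edgeR and 0 had separated diets, against 0% and 13.1% of 5284 genes; 5.79% of all genes and 0 of the 5 reached an unadjusted p below 0.05, and DESeq2 called 5 genes, none of the 10. Over all blood endothelial cells (capillary-, arterial- and venous-like and an Npr3- and H19-led cluster, without lymphatic-like cells) 0 of 7 genes was called or separated, against 0.059% and 18.7% of 10177 genes, and 0 of 7 had an unadjusted p under 0.05, against 12.2%. Nos3 there had 86.1, 74.0 and 91.1 CPM on the high-fat diet and 75.3, 128 and 74.9 CPM in controls, a log2 fold change of -0.20 with SE 0.238 (adjusted p = 0.789, edgeR).

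**Figure D3:**
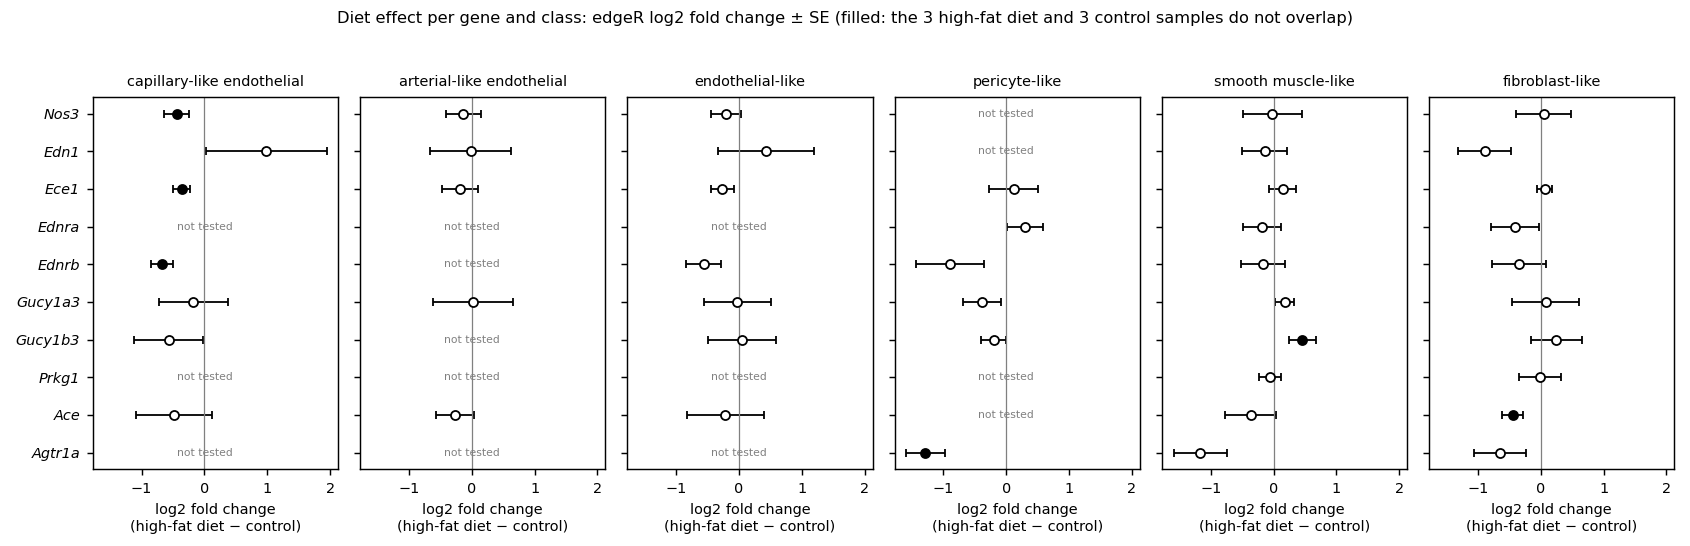
Log2 fold change (high-fat diet minus control) ± SE from edgeR for each gene (rows) in 6 classes (panels); filled points are tested genes whose 3 high-fat diet and 3 control samples do not overlap, and genes under the count filter are marked as not tested. Filled points are Nos3, Ece1 and Ednrb in capillary-like endothelium, Agtr1a in pericyte-like, Gucy1b3 in smooth muscle-like and Ace in fibroblast-like cells.

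In smooth muscle-like cells all 10 genes were tested and 0 was called by edgeR, as were 0% of 13259 genes; 1 of the 10 and 8.96% of all genes reached an unadjusted p below 0.05, and DESeq2 called 90 genes, none of the 10. Gucy1b3 was the only one of the 10 with separated diets, at 160, 208 and 179 CPM on the high-fat diet and 157, 154 and 85.4 CPM in controls. Its log2 fold change was 0.46 (SE 0.215, edgeR adjusted p = 0.574), and 14.9% of all genes tested were separated, with 6.24% of all genes higher on the high-fat diet. In the Npnt- and Sost-led cluster alone Gucy1b3 had 147, 181 and 179 CPM on the high-fat diet and 194, 155 and 85.5 CPM in controls, which overlapped. Its partner Gucy1a3 had a log2 fold change of 0.18 with SE 0.154 (adjusted p = 0.732, edgeR), with overlapping diets.

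Agtr1a had the unadjusted p under 0.05 in smooth muscle-like cells, on only 115 UMIs, with a log2 fold change of -1.16 with SE 0.423 (adjusted p = 0.527, edgeR). Its levels overlapped, since control 3 lay below high-fat diet 3. In the same class the summed capillary markers (10 genes) were 608 to 927 CPM on the high-fat diet and 358 to 592 CPM in controls, and the summed adipocyte markers (6 genes) were 2.22 to 8.13 CPM on the high-fat diet and 8.99 to 28.1 CPM in controls. The part of either list in these values was not tested.

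Pericyte-like cells (65, 73 and 134 on the high-fat diet; 26, 59 and 59 in controls) had 6 of the 10 genes tested and 0 called by edgeR, while 1.04% of 4043 genes were called. Agtr1a was lower in every high-fat diet sample, at 75.4, 41.9 and 80.0 CPM on the high-fat diet and 101, 147 and 220 CPM in controls, a log2 fold change of -1.29 with SE 0.313 (adjusted p = 0.0554, edgeR). It rested on 75 UMIs on the high-fat diet and 85 UMIs in controls. Of all genes tested, 16.4% had separated diets, with 7.35% of all genes lower on the high-fat diet, and 1 of the 6 and 11.6% of all genes had an unadjusted p under 0.05. DESeq2 called 22 genes. The edgeR adjusted p was 0.0246 without control 1, 0.261 without high-fat diet 2 and 0.427 without control 3. Genes called in these fits were 51 of 4865, 3 of 4036 and 0 of 5011, in the same order.

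Agtr1a was concentrated in the Kcnj8- and Steap4-led cluster, as given above, and that cluster's share of the class differed between the samples. It made up 30.8%, 32.9% and 50.0% of the pericyte-like cells on the high-fat diet and 100%, 50.8% and 72.9% in controls. Within that cluster alone Agtr1a had 220, 120 and 202 CPM on the high-fat diet and 101, 299 and 314 CPM in controls, which overlapped. Its log2 fold change there was -0.41 with SE 0.395 (adjusted p = 0.712, edgeR). The overlap came from control 1 alone, whose 26 pericyte-like cells were all in this cluster. Controls 2 and 3 lay above every high-fat diet sample. The part of the cluster share in the Agtr1a values of the class was not tested. The summed smooth muscle markers (8 genes) in the pericyte-like class were 10767 to 14454 CPM on the high-fat diet and 4545 to 7564 CPM in controls, and the summed arterial markers (12 genes) were 263 to 428 CPM on the high-fat diet and 490 to 681 CPM in controls; their part in the Agtr1a values was not tested.

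**Figure D4:**
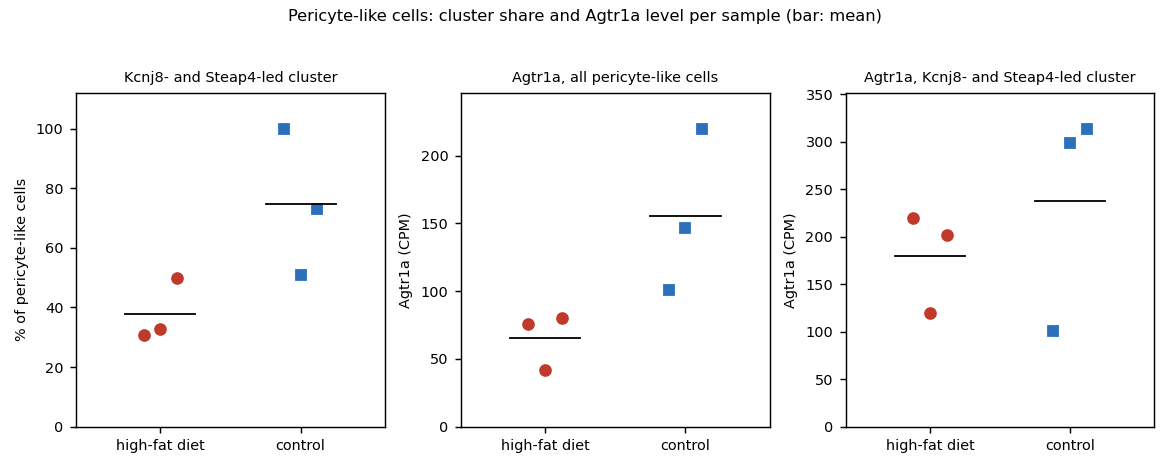
Pericyte-like cells by sample, high-fat diet left (circles) and control right (squares), with a bar at the mean: share of the Kcnj8- and Steap4-led cluster (% of pericyte-like cells), Agtr1a level in all pericyte-like cells (CPM) and Agtr1a level in that cluster alone (CPM). The diets are apart in the left and middle panels and overlap in the right one, where control 1 at 101 CPM is the lowest sample. The gap in the left panel is narrow, with 50.0% in high-fat diet 3 and 50.8% in control 2.

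Ednrb, also concentrated in that cluster, had 52.5, 68.9 and 124 CPM in all pericyte-like cells on the high-fat diet and 156, 249 and 56.3 CPM in controls, with a log2 fold change of -0.89 with SE 0.536 (adjusted p = 0.593, edgeR). Its diets overlapped because control 3 lay below high-fat diet samples 2 and 3. Within the Kcnj8- and Steap4-led cluster alone it had 203, 293 and 310 CPM on the high-fat diet and 156, 609 and 84.2 CPM in controls, with a log2 fold change of 0.0045 and SE 0.645 (adjusted p = 0.997, edgeR). Prkg1, with 70 UMIs, was under the count filter; its 55.7, 65.9 and 35.8 CPM on the high-fat diet were above the 33.5, 22.3 and 30.7 CPM in controls. Ednra in this class had a log2 fold change of 0.29 with SE 0.289 (adjusted p = 0.761, edgeR), with overlapping diets.

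In fibroblast-like cells all 10 genes were tested and 0 was called by edgeR, as were 0% of 13823 genes; 1 of the 10 and 10.5% of all genes reached an unadjusted p below 0.05, and DESeq2 called 202 genes, none of the 10. Ace was lower in every high-fat diet sample, at 139, 125 and 170 CPM on the high-fat diet and 180, 201 and 182 CPM in controls, a log2 fold change of -0.45 with SE 0.166 (adjusted p = 0.434, edgeR). Separated diets were seen for 16.5% of all genes tested, with 6.67% of all genes lower on the high-fat diet. Within the Pi16-led cluster, where Ace is highest, the diets were apart as well, at 168, 210 and 195 CPM on the high-fat diet and 219, 271 and 300 CPM in controls. In the Mmp3- and Meox1-led cluster they overlapped, at 162, 126 and 109 CPM on the high-fat diet and 182, 184 and 101 CPM in controls. The summed adipocyte markers (6 genes) in the class were 2.26 to 12.1 CPM on the high-fat diet and 13.2 to 33.6 CPM in controls, and their part was not tested.

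Edn1 in fibroblast-like cells had 13.8, 12.9 and 28.4 CPM on the high-fat diet and 20.1, 37.3 and 39.2 CPM in controls. Its log2 fold change was -0.89 (SE 0.422, edgeR adjusted p = 0.506), and high-fat diet 3 lay above control 1.

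**Figure D5:**
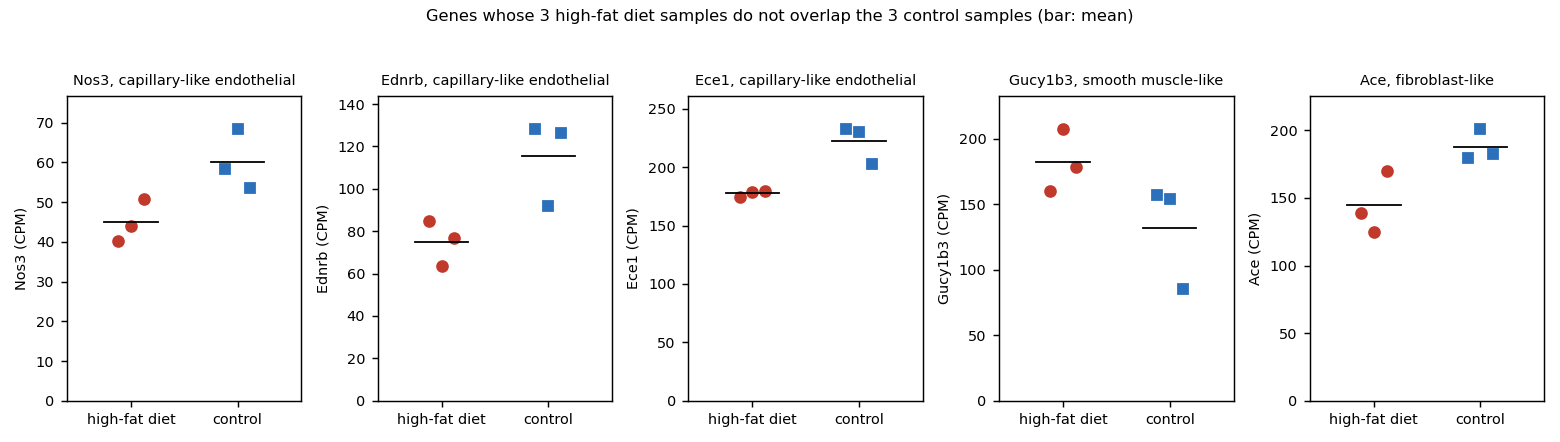
Level (CPM, axes from 0) by sample of the genes whose high-fat diet samples (left, circles) and control samples (right, squares) do not overlap, with a bar at the mean: Nos3, Ednrb and Ece1 in capillary-like endothelium, Gucy1b3 in smooth muscle-like and Ace in fibroblast-like cells. Gaps are narrow for Nos3, where high-fat diet 3 has 50.9 CPM and control 3 has 53.6 CPM, and for Gucy1b3, where high-fat diet 1 has 160 CPM and control 1 has 157 CPM.

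Whether the diet difference itself differed between classes was tested as an interaction with the sample as a block. Between blood endothelial and smooth muscle-like cells 0 of the 10 genes was called, with 0% of 12962 genes called, and 0 of the 10 reached an unadjusted p under 0.05, against 3.8% of all genes. The smallest unadjusted p was that of Ece1 (difference of log2 fold changes -0.40, SE 0.188, edgeR adjusted p = 1.00). Edn1 had a difference of 0.88 (SE 0.543, edgeR adjusted p = 1.00), which without control 1 was 1.59 with an edgeR adjusted p of 0.0176. In that fit without control 1, 17 of 13152 genes were called. Between capillary- and arterial-like endothelium 0 of the 7 genes tested was called, against 0.0456% of 8767 genes, and 1 of the 7 reached an unadjusted p under 0.05, against 4.64% of all genes. Ednrb had a difference of -1.35 there (SE 0.619, edgeR adjusted p = 1.00).

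Over the tested members of a class the median log2 fold change was -0.44 in capillary-like endothelium, -0.13 in arterial-like endothelium, -0.29 in pericyte-like, -0.10 in smooth muscle-like and -0.18 in fibroblast-like cells. Over all genes tested in the same classes it was between -0.016 and -0.002. The medians of the members rested on only 5 to 10 genes a class, and their distance from those of all genes was not tested. Of the 3 pathway lists, no gene was called in any class. Of all genes tested, 0% were called in arterial-like, smooth muscle-like and fibroblast-like cells. The shares were 0.059% in blood endothelium, 0.26% in capillary-like endothelium and 1.04% in pericyte-like cells, so few or no calls would be looked for in lists of this size. In capillary-like endothelium 29 of the 40 nitric oxide and cyclic GMP genes were tested, 11 with a positive and 18 with a negative log2 fold change. Of the 13 endothelin genes 8 were tested (3 positive and 5 negative), and of the 18 renin and angiotensin genes 7 were tested (4 positive and 3 negative). Of all genes tested in this class 49.4% were positive. The median log2 fold changes of the 3 lists there were -0.103, -0.056 and 0.072, in the same order.

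The list genes with the smallest adjusted p included Lnpep, the aminopeptidase that is also the angiotensin IV receptor. In capillary-like endothelium it had 19.6, 17.9 and 17.2 CPM on the high-fat diet and 7.14, 2.92 and 7.05 CPM in controls, a log2 fold change of 1.53 with SE 0.354 (adjusted p = 0.101, edgeR). The class sums of the controls held 685776 to 1418008 UMIs, so these Lnpep levels in controls rested on few UMIs. Agtrap, whose product binds the Agtr1a receptor and promotes its internalization, had 42.6, 29.9 and 42.1 CPM in pericyte-like cells on the high-fat diet and 78.2, 80.1 and 66.5 CPM in controls, a log2 fold change of -0.95 by edgeR (adjusted p = 0.186). Npr2, a natriuretic peptide receptor that makes cyclic GMP, had 29.4, 23.6 and 25.1 CPM in capillary-like endothelium on the high-fat diet and 40.4, 39.4 and 37.4 CPM in controls, a log2 fold change of -0.62 by edgeR (adjusted p = 0.241). Cav1, the caveolar protein that binds and inhibits Nos3, had 561, 665 and 558 CPM in pericyte-like cells on the high-fat diet and 413, 432 and 230 CPM in controls, a log2 fold change of 0.74 by edgeR (adjusted p = 0.169). These 4 were chosen for their adjusted p, and none was called. Separated diets were seen for 19.7% of all genes tested in capillary-like endothelium and for 16.4% in pericyte-like cells. Samples filled the clusters of the capillary-like and pericyte-like classes unequally, as given above, and the part of this in the values of these 4 genes was not tested.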

How the data were processed

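The samples of mouse aorta, 3 on a high-fat diet and 3 controls, were used as deposited. The barcodes of each sample carried 2 suffixes, which were read as 2 gel-bead wells. The 2 parts of a sample could differ in make-up. In high-fat diet 2, well 1 held 1936 smooth muscle-like cells (4840 cells deposited) and well 2 held 209 (3428 cells deposited). Whether both parts came from 1 suspension was not tested. The deposited values are raw UMI counts per gene and cell, which the authors made with Cell Ranger 3.0 on build mm10, per the submitters' processing notes. The 10 genes and the pathway lists were chosen with earlier results of these data known.

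Cells with at least 300 genes and under 20% mitochondrial UMIs were kept (59413 of 62838), and 1394 cells with a doublet score over 0.25 (scrublet in scanpy 1.11.5, run on each well of each sample) were removed. Cells were clustered on 2000 variable genes, 30 components and 20 neighbours with Leiden (leidenalg 0.10.2, resolution 1), without the genes of the 3 pathway lists, and endothelial and mural cells were clustered again (17 and 8 clusters). Clusters were named from marker lists; 1538 cells stayed unnamed, and 10 clusters took over 80% of their cells from 1 sample. A rebuilt name may differ from the study's.

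Counts were summed per sample and class and tested with edgeR 4.0.16 (robust quasi-likelihood fit, TMM factors, filterByExpr) in R 4.3.3. The fits were tested on simulated data. CPM is the count per 1000000 UMIs of the class sum, without TMM. For shares of cells with a UMI, each cell was thinned to 1000 UMIs; intervals cover counting error only. DESeq2 1.42.0, other size factors, no count filter, leaving out each sample, other cell filters and a marker gate were alternatives. Named genes were the 10 members, the list genes with the smallest adjusted p (up to 4 a list and class) and the 3 genes most like each member; other names are marked as chosen later. Gene positions come from the GENCODE annotation of mm10 and sequences from RefSeq (GRCm38.p6).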

Additional observations from a re-analysis of the deposited data

How the results depend on the processing

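The 7 fold changes that were separated by diet or had an unadjusted p under 0.05 (Nos3, Ednrb and Ece1 in capillary-like endothelium, Gucy1b3 and Agtr1a in smooth muscle-like, Agtr1a in pericyte-like and Ace in fibroblast-like cells) were picked on the same samples that the alternatives reuse. Their direction was thus largely set by that choice, and it was kept in all 111 alternative values. Calls were gained in 4: capillary-like Ednrb without the count filter (adjusted p = 0.0390, edgeR, over a range of 0.0390 to 0.497), and pericyte-like Agtr1a with median-of-ratios size factors (0.0499), without the count filter (0.00946) and without control 1 (0.0246), over a range of 0.00946 to 0.712. Those alternatives gave 1 called member each in pericyte-like cells, among 49 of 4043, 143 of 14535 and 51 of 4865 genes called. The missing filter gave 1 in capillary-like endothelium, among 289 of 16653 genes called. Log2 fold changes ran from -1.47 to -0.41 for pericyte-like Agtr1a, lowest without control 1 and highest in the Kcnj8- and Steap4-led cluster alone, an alternative chosen after seeing the data like the split by well, from -0.50 to -0.04 for capillary-like Ece1, the ends being well 1 and well 2, from -1.51 to -0.66 for smooth muscle-like Agtr1a and from -0.85 to -0.38 for capillary-like Ednrb. Counts of genes called moved more than any member. DESeq2 called 36 genes in blood endothelium, 40 in capillary-like, 5 in arterial-like, 90 in smooth muscle-like, 22 in pericyte-like and 202 in fibroblast-like cells. Without the count filter edgeR called 102, 289, 30, 15, 143 and 17 in the same order. The marker gate gave 41, 90, 3 and 7 in blood endothelium, capillary-like, arterial-like and pericyte-like cells; median-of-ratios factors gave 1 in arterial-like; leaving out clusters of 1 sample gave 0 in blood endothelium and 11 in capillary-like. Well 1 alone gave 0 in blood endothelium, capillary-like and pericyte-like and 1 in fibroblast-like cells, well 2 alone gave 10 in smooth muscle-like and 3 in fibroblast-like cells, and the Kcnj8- and Steap4-led cluster alone gave 4 for pericyte-like cells. Leaving out 1 sample gave 0 to 174 in blood endothelium and 0 to 434 in capillary-like endothelium, both highest without control 1 and 0 without high-fat diet 1, 0 to 6 in arterial-like, 0 to 4 in smooth muscle-like, 0 to 56 in pericyte-like (0 without control 3, 3 without high-fat diet 2) and 0 to 2 in fibroblast-like cells, and 0 to 1 members in pericyte-like cells and in the difference between blood endothelial and smooth muscle-like cells (Edn1, without control 1). The cause of these shifts was not tested. With the replicate number as a block, edgeR called 0 genes in blood endothelium and 2 in capillary-like endothelium, against 6 and 23 without it, and no member in any class; deviations of same-numbered samples correlated at -0.128 to 0.384 over 18 pairs, 4 of them over 0.1. By thinned shares the highest type was the same as by CPM for 8 of the 10 genes, and by unthinned shares for 9. Agtr1a held the fewest UMIs of the 10 genes, and Prkg1 was under the count filter in pericyte-like cells, on 70 UMIs.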

Other observations

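Cell types with under 20 cells in some samples were left out of the order of levels, and several held high values of the 10 genes. Venous-like endothelium, led by Vwf and Ackr1 and read in 5 samples, had 123, 172 and 106 CPM of Nos3 on the high-fat diet and 53.1 and 66.0 CPM in controls 2 and 3. Edn1 there had 246, 270 and 366 CPM on the high-fat diet and 53.1 and 203 CPM in controls. These levels rested on 63 UMIs of Nos3 and 139 UMIs of Edn1, with no test. An endothelial cluster led by Npr3 and H19 held 904 CPM of Ece1 in high-fat diet 1 and 728 CPM in control 3, the highest Ece1 levels of any type. Chondrocyte-like cells, read in 4 samples, averaged 48.4 ± 8.25 CPM of Ednra and 42.9 ± 9.47 CPM of Prkg1 (SD, n = 4).

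Genes that act around the 10 had peaks of their own, and those named were chosen after their levels were seen. Cma1, a mast cell chymase that can form angiotensin II, was highest in dendritic-like cells at 91.5 CPM. No cluster was named as mast cells, and whether mast cells lay among the dendritic-like cells was not tested. Ren1, the renin gene, was highest in mesothelial-like cells at 54.6 CPM, and so was Npr1, a natriuretic peptide receptor, at 153 CPM. Pde2a, a phosphodiesterase stimulated by cyclic GMP, was highest in capillary-like endothelium at 187 CPM, and Ddah1, which breaks down an inhibitor of nitric oxide synthase, in lymphatic-like endothelium at 70.4 CPM.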
